A study of Homo sapiens with 5 samples.

Results

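Genes of the actin cytoskeleton and targets of serum response factor (SRF) were followed across clones of TE7, an esophageal carcinoma line of human origin. The set was a list of 44 symbols. A member counted as measured where its symbol had a named probe set in the deposited table, and values were averaged over the probe sets of a gene. By this rule 26 of the 44 members were measured, among 14812 named genes in all. The other 18 members were not analysed here. They include the actins ACTA2, ACTB, ACTG1 and ACTG2, the crosslinkers ACTN1, ACTN4, FLNA and FLNC, and ANLN.

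Filaments of actin are polymerised from monomers, bundled by crosslinkers, decorated by tropomyosins and pulled by myosin, and their ends are held at focal adhesions. When monomers are used up, the coactivators MRTFA and MRTFB are freed from actin, enter the nucleus and join SRF. SRF binds a short DNA element, the CArG box, in genes of the same cytoskeleton. In epithelial cells actin bundles also anchor the cadherin junctions.

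The study measured RNA on Affymetrix Gene 2.0 ST arrays, with 1 array for each of 5 clones. Both groups were made in TE7 by transduction and single-cell cloning: 2 clones received pMIRNA1-puro-control and 3 received pMIRNA1-puro-CDH26, which drives CDH26, a cadherin. All 5 clones were grown to confluence and then kept for 24 h in RPMI with 1.8 mM calcium. Every sample is 1 clone, so differences between clones and array error enter the spread of a group together. The CDH26 transcript stood at 2.87, 3.01 and 2.63 in CDH26 clones 1, 2 and 3, and at 0.01 and −0.01 in control clones 1 and 2.

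All values below are on the log2 scale, set against the average of the 2 control clones. That average is 0 for every gene, so the values of control clones 1 and 2 are always equal and opposite, and no expression level is kept. A difference is the mean of the CDH26 clones minus that of the control clones, on the same log2 scale. Whether a transcript is abundant or absent in TE7 cannot be read from such values, nor can the epithelial identity of the clones be checked by levels. In bulk RNA, fewer cells of a kind and less RNA per cell cannot be told apart. The number of arrays limits the precision throughout.

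Most measured members lay lower in the CDH26 clones, but the control clones also differed from each other. The members were chosen with earlier results of these data known, so the counts below describe the list and do not test it. Of the 26 members, 20 averaged lower in the CDH26 clones, against 49.5% of all named genes. The median difference over the members was −0.23, against 0.00 over all named genes. All 3 CDH26 clones were under both controls in 9 members, against 9.93% of all genes, and above both in 1 member, against 8.98%. Differences of at least 0.5 log2 units were found downwards in 3 members and upwards in 0, against 1.82% and 2.13% of all genes. With limma and Benjamini-Hochberg adjustment over all genes, 0 members passed an adjusted p of 0.05, as did 0 (0%) of all genes. The CDH26 transcript itself, at a difference of 2.84, had an adjusted p of 0.250 in limma. A count of 0 at this threshold is thus no sign that nothing changed. At an unadjusted p under 0.05, 4 members were lower, against 4.00% of all genes, and 1 was higher, against 3.51%. At least 2 clones shared a value in 53.7% of all genes, but in 4 of the 26 members. A gene with the same value in all clones can meet none of the conditions above. Such genes are few, as 7338 of the 14812 genes averaged lower and 7097 higher. A gene in which a CDH26 clone tied with a control clone cannot lie under or above both controls. Such ties can lower the shares of all genes in counts of clones above or below others, here and later. Genes that vary little can lower the shares for gaps of at least 0.5. Between the control clones the median absolute difference was 0.41 over the members and 0.09 over all genes.

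**Figure D1:**
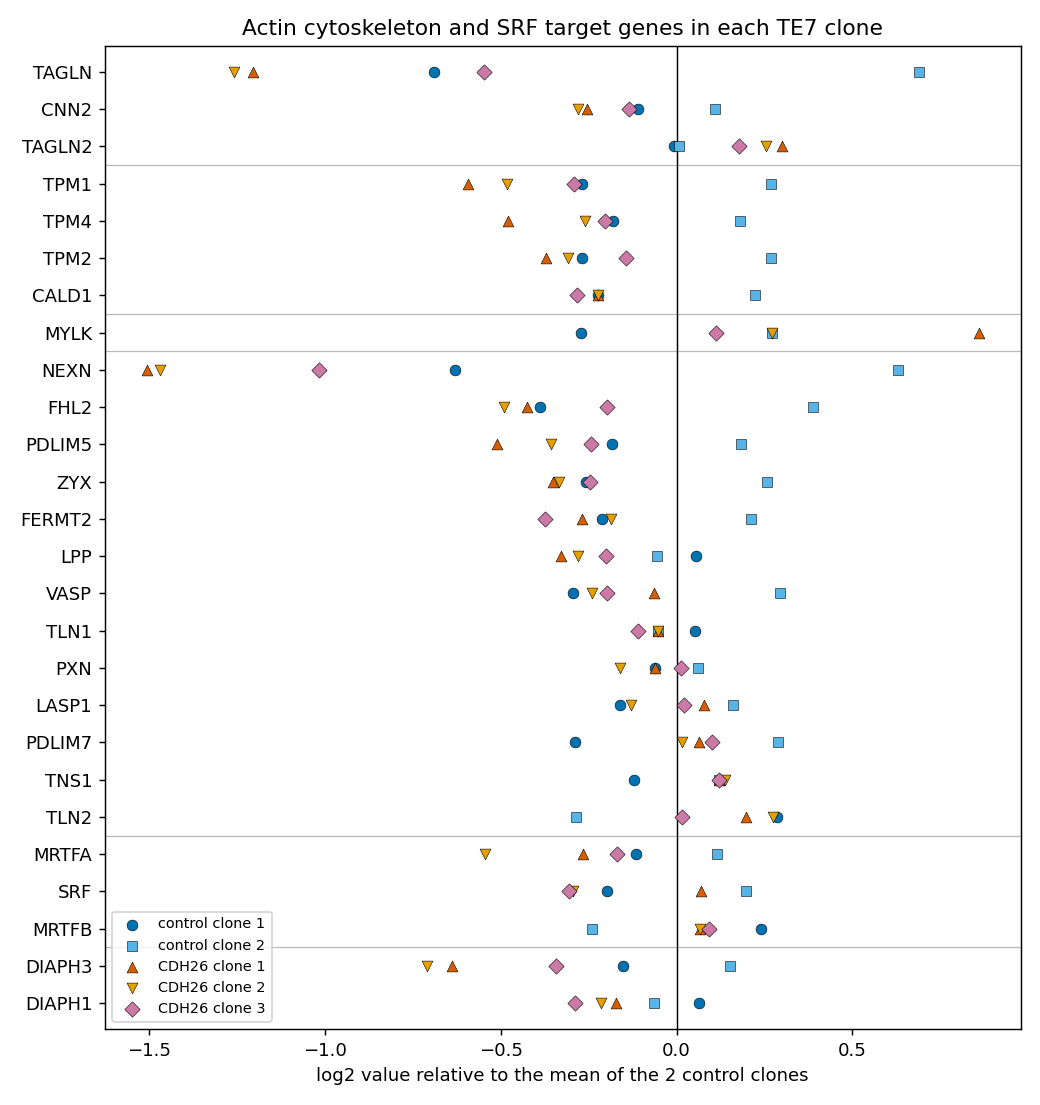
Values of the 26 measured members in each of the 5 clones, as log2 relative to the control mean, with 1 symbol per clone and grey lines between groups of related function. Control clone 2 is the rightmost point in 18 of the 26 genes, while control clone 1 mostly lies near the CDH26 clones.

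The 2 control clones differed from each other in many of the members. The gap between them was at least as large as the difference between CDH26 and control clones in 18 of the 26 members. Over all genes the share was 56.6%, which counts in the few genes with the same value in all clones. Control clone 2 lay above all 4 other clones in 18 of the 26 members, against 22.6% of all genes, and control clone 1 did so in 5, against 20.2%. Control clone 2 was above control clone 1 in 21 members, against 42.7% of all genes. The gap reached 0.5 log2 units in 9 members with control clone 2 higher, against 3.18% of all genes, and in 1 member, TLN2, with control clone 1 higher, against 3.36%. The median of control clone 2 minus control clone 1 was 0.36 over the members and 0.00 over all genes.

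Set against each control clone alone, the CDH26 clones gave unlike pictures. All 3 CDH26 clones lay below control clone 2 in 20 members, against 27.0% of all genes, and above it in 3, against 25.9%. They lay below control clone 1 in 12 members, against 25.7% of all genes, and above it in 6, against 23.8%. With control clone 1 left out the members' median difference was −0.41, and with control clone 2 left out −0.09. By clone, the median over the members was −0.24, −0.25 and −0.20 for CDH26 clones 1, 2 and 3, against −0.18 for control clone 1 and 0.18 for control clone 2. Control clone 1 thus sat close to CDH26 clone 3, and control clone 2 stood apart from the other 4 clones.

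**Figure D2:**
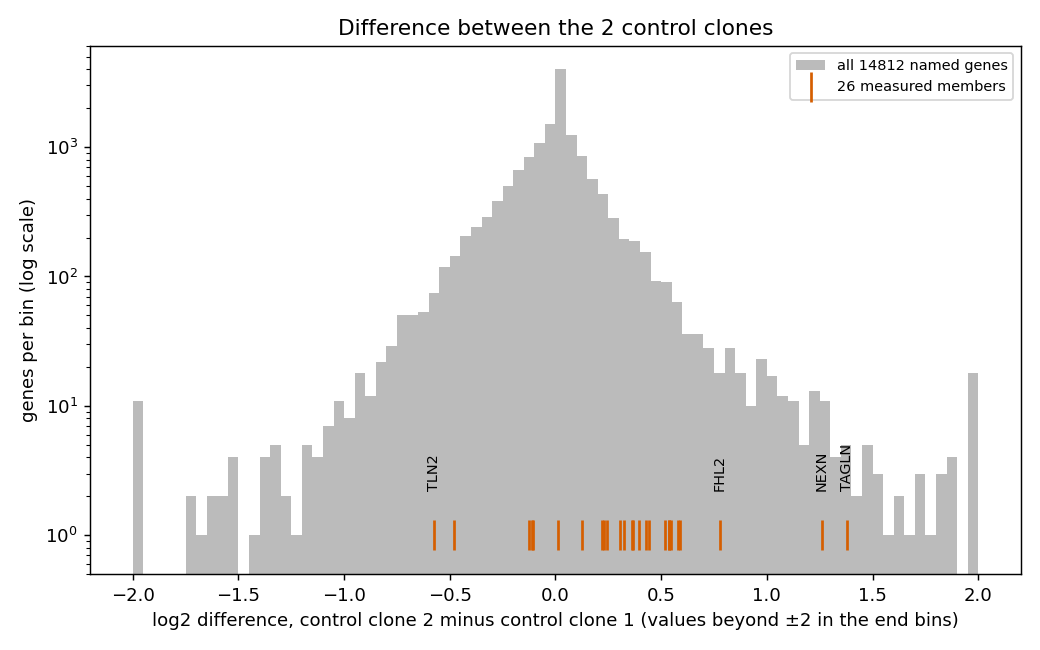
Log2 difference of control clone 2 minus control clone 1, as a histogram over all 14812 named genes with a log count axis, and as orange ticks for the 26 measured members. The ticks run from −0.57 for TLN2 to 1.38 for TAGLN, and 21 of them lie above 0.

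SRF itself, the transcription factor, showed no separation of the groups. It stood at 0.07, −0.29 and −0.30 in CDH26 clones 1, 2 and 3, and at −0.20 and 0.20 in control clones 1 and 2. CDH26 clone 1 lay between the control clones, so the groups overlapped. The difference was −0.18 ± 0.19 (SE; 95% interval −0.71 to 0.36), and it was 0.02 without control clone 2.

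The coactivators that carry the actin signal to SRF are MRTFA and MRTFB, and neither passed the test. MRTFA was at −0.27, −0.55 and −0.17 in CDH26 clones 1, 2 and 3, and at −0.11 and 0.11 in control clones 1 and 2. All CDH26 clones were under both controls, by a margin over control clone 1 that was narrow for CDH26 clone 3. The difference for MRTFA was −0.33 ± 0.15 (SE), with an unadjusted p of 0.0958 and an adjusted p of 0.626 in limma.

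MRTFB was at 0.07, 0.07 and 0.09 in the CDH26 clones and at 0.24 and −0.24 in control clones 1 and 2. The CDH26 clones thus lay close together between the controls. Its difference was 0.07 ± 0.16 (SE); against control clone 1 alone it was −0.17, and against control clone 2 alone 0.32. MRTFB is among the few members in which control clone 1, not control clone 2, was the highest clone.

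Start sites of the members were searched for the CArG box, to show which of them carry the SRF element close to the start. The RefSeq promoter table (GRCh38.p14) held 54 windows for 25 of the 26 measured members, each 300 bases long with 250 before the start and 50 after it. TAGLN had no window there. The box searched is CC, then 6 bases that are each A or T, then GG, which reads as the same class on both strands. In at least 1 window it was found in 6 of the 25 members, 24.0%: SRF, LPP, CNN2, TPM4, MYLK and FHL2. It was in 1 of 2 windows of SRF, 1 of 7 of LPP, 1 of 3 of TPM4 and 3 of 4 of FHL2. CNN2 and MYLK had 1 window each. Among all 35116 windows of this length 1.29% held it, and among the 10736 named genes with a window 1.72% had it in at least 1. The list names SRF targets as well as actin cytoskeleton genes, so the members' share describes the list. Of the 6 members with a box, 3 had every CDH26 clone below both control clones, as did 6 of the 19 with a window and no box, against 9.93% of all genes. A match is a description of the letters, not a binding site.

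For SRF and 4 other members the window with a box is shown from 250 bases before its start up to the start, with the CArG box in capitals. SRF is shown because this window has 2 boxes, the first beginning 30 bases and the second 10 bases before the start. LPP, CNN2 and TPM4 are the 3 members with a box and all CDH26 clones below both controls, and MYLK is the member with the highest difference. The stretches are chr6:43171019-43171268 (plus strand) for SRF, chr3:188212462-188212711 (plus) for LPP, chr19:1026358-1026607 (plus) for CNN2, chr19:16067288-16067537 (plus) for TPM4 and chr3:123620549-123620798 (minus) for MYLK. Each is read 5′ to 3′ on the strand of its gene.
SRF: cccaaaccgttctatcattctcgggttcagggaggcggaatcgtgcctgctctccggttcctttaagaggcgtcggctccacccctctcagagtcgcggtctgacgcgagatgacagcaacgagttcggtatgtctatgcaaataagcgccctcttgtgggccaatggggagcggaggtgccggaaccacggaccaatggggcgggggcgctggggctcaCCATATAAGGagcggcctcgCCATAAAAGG
LPP: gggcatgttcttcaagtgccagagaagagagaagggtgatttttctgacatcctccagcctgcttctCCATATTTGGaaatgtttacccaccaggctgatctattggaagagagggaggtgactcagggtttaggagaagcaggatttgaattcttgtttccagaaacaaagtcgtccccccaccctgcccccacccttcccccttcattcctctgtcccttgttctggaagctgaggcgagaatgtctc
CNN2: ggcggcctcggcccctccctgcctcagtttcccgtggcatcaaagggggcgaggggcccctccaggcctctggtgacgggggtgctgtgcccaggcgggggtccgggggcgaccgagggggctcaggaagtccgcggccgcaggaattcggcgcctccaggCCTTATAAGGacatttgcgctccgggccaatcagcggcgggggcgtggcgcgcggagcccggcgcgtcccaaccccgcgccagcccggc
TPM4: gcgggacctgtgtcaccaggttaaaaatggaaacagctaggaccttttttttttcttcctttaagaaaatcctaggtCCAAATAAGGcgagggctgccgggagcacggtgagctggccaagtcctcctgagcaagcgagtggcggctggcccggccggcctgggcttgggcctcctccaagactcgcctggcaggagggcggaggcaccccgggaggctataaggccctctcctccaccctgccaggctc
MYLK: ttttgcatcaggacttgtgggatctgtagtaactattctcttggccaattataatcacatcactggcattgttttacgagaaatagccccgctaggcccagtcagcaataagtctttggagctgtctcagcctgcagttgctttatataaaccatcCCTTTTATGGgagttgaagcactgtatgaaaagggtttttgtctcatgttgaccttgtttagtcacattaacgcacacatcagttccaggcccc

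The boxes differ in letters and in distance from the start. The box of LPP begins 183 bases before the start and that of TPM4 173 bases before it, while those of CNN2 and MYLK begin 89 and 94 bases before it. LPP and MYLK both carry a box, yet their differences had opposite signs, as given below. The window of NEXN, the member with the lowest difference, held no such letters, which says only that they are not in that window.

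Of the calponin and transgelin family, which bind along actin filaments, 3 of 5 members were measured: TAGLN, TAGLN2 and CNN2. TAGLN, or SM22 alpha, is a smooth muscle actin-binding protein and a classical SRF target. It was at −1.20, −1.26 and −0.55 in CDH26 clones 1, 2 and 3, and at −0.69 and 0.69 in control clones 1 and 2. CDH26 clone 3 lay above control clone 1, so the groups overlapped, and control clone 2 was far above the rest. The difference was −1.00 ± 0.52 (SE; unadjusted p = 0.128, limma). Leaving out control clone 1 gave −1.69, and leaving out control clone 2 gave −0.31. TAGLN also had the widest gap between control clones of all members, 1.38.

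TAGLN2, the transgelin of non-muscle cells, was the only member with all CDH26 clones over both controls. It was at 0.30, 0.26 and 0.18 in CDH26 clones 1, 2 and 3, and at −0.01 and 0.01 in control clones 1 and 2. The difference was 0.25 ± 0.04 (SE; 95% interval 0.12 to 0.37), a 1.19-fold higher value. Its unadjusted p of 0.00558 was the smallest of the members, with an adjusted p of 0.626 (limma). With each clone left out in turn the difference stayed between 0.22 and 0.28 and the unadjusted p between 0.00256 and 0.0409. TAGLN2 was also the member in which the control clones differed least.

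CNN2, a calponin found in many cell types, was at −0.25, −0.28 and −0.14 in the CDH26 clones and at −0.11 and 0.11 in control clones 1 and 2. All CDH26 clones lay below both controls, CDH26 clone 3 only just. The difference was −0.22 ± 0.09 (SE), and −0.11 without control clone 2. Its 2 probe sets gave −0.36 ± 0.14 and −0.08 ± 0.04 (SE), the same direction at different sizes. In the second, CDH26 clone 3 and control clone 1 shared the value −0.03, so only the first separated the groups. Genes of these families resemble one another in sequence, so probes may share signal between them; the probe sequences were not used here.

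Tropomyosins wind along the filament and set its access to myosin. The measured ones, TPM1, TPM2 and TPM4, were all lower on average, and all were highest in control clone 2. TPM3 was listed but not measured. TPM1 was at −0.59, −0.48 and −0.29 in CDH26 clones 1, 2 and 3, and at −0.27 and 0.27 in control clones 1 and 2. TPM4 was at −0.48, −0.26 and −0.20 in the same CDH26 clones and at −0.18 and 0.18 in the controls. In both genes all CDH26 clones were under both controls, with CDH26 clone 3 nearly level with control clone 1. The differences were −0.46 ± 0.20 (SE) for TPM1 and −0.31 ± 0.15 for TPM4, or −0.19 and −0.13 without control clone 2. The 2 probe sets of TPM1 gave −0.50 ± 0.22 and −0.41 ± 0.19. In the second, CDH26 clone 3 and control clone 1 shared the value −0.23, so only the first separated the groups.

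TPM2 and caldesmon did not separate the groups. TPM2 was at −0.37, −0.31 and −0.15 in the CDH26 clones and at −0.27 and 0.27 in control clones 1 and 2, a difference of −0.27 ± 0.19 (SE). CALD1, which encodes caldesmon, a brake on actomyosin, was at −0.22, −0.22 and −0.28 in the CDH26 clones and at −0.22 and 0.22 in the controls. Control clone 1 shared its CALD1 value with CDH26 clones 1 and 2 within 1e-05. Without control clone 2 the differences were −0.01 for TPM2 and −0.02 for CALD1.

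Of the myosin genes only MYLK was measured; it encodes myosin light chain kinase, which switches on contraction. It was at 0.86, 0.27 and 0.11 in CDH26 clones 1, 2 and 3, and at −0.27 and 0.27 in control clones 1 and 2. CDH26 clone 1 was far above the other clones, and CDH26 clones 2 and 3 did not exceed control clone 2. The difference of 0.41 ± 0.31 (SE; 95% interval −0.47 to 1.30) was the highest of the members, and it was 0.19 without CDH26 clone 1 and 0.14 without control clone 1.

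**Figure D3:**
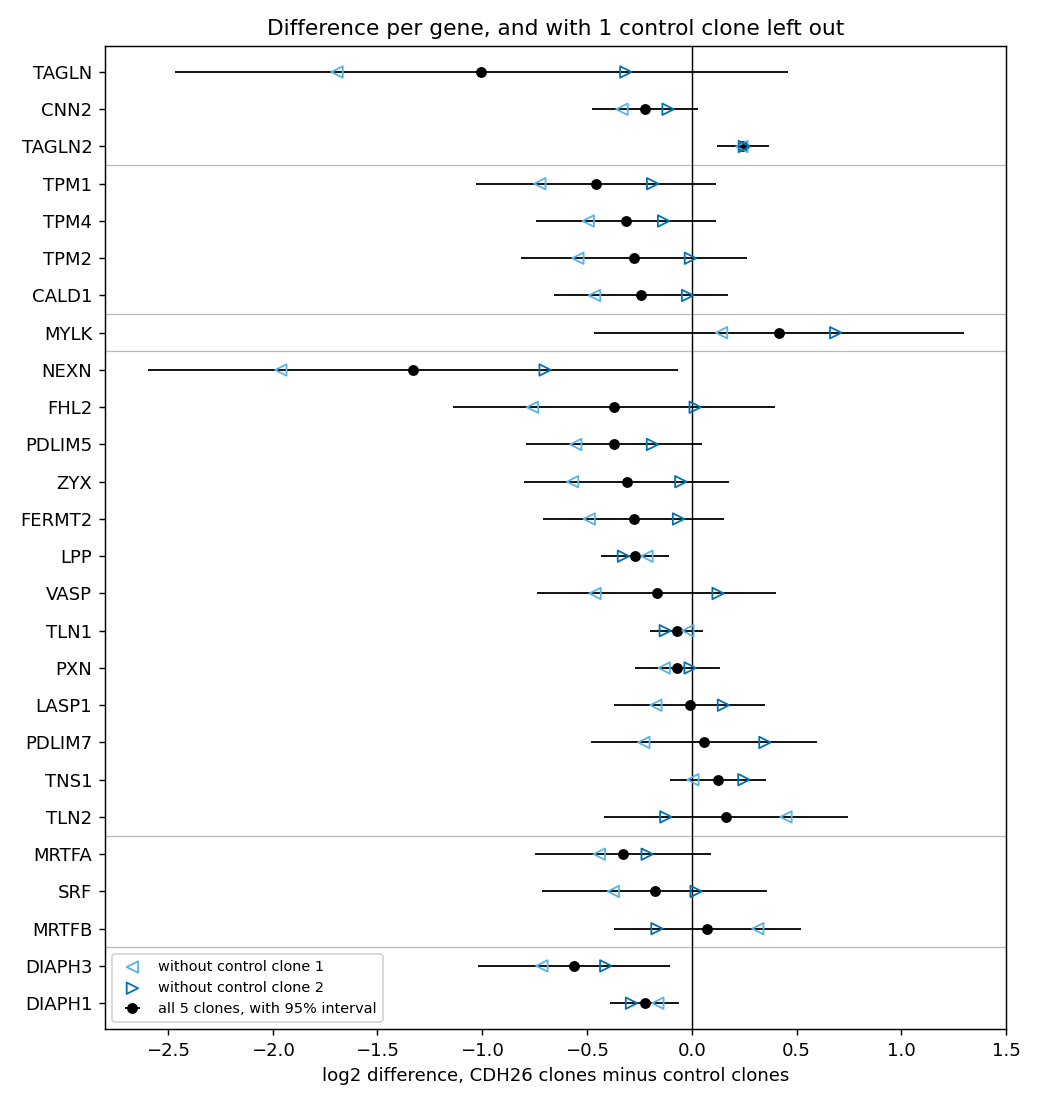
Log2 difference of CDH26 minus control clones for the 26 measured members, with limma's 95% interval (black) and the difference after leaving out control clone 1 or control clone 2 (open triangles). Without control clone 2 NEXN moves from −1.33 to −0.70 and FHL2 to 0.02, while TAGLN2 and LPP move little.

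Focal adhesion and stress fibre proteins formed the largest group, with 13 of 15 listed genes measured. Of these, 10 averaged lower in the CDH26 clones, 2 of them at an unadjusted p under 0.05, and 3 averaged higher, 0 at that p. Over all genes 49.5% averaged lower, 4.00% were lower at that p and 3.51% higher. The group's median difference was −0.17, or −0.05 without control clone 2. The member with the lowest difference was NEXN, which encodes nexilin, a filamentous actin-binding protein of cell-matrix adhesions and the Z disc. It was at −1.51, −1.47 and −1.02 in CDH26 clones 1, 2 and 3, and at −0.63 and 0.63 in control clones 1 and 2. The CDH26 clones lay below both controls, and control clone 1 stood nearer to CDH26 clone 3 than to control clone 2.

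The difference for NEXN was −1.33 ± 0.45 (SE; 95% interval −2.60 to −0.07), a 2.51-fold lower value, with an unadjusted p of 0.0434 and an adjusted p of 0.626 in limma. Leaving out control clone 1 gave −1.96, and leaving out control clone 2 gave −0.70. With each clone left out in turn the unadjusted p ran from 0.00892 to 0.128 and stayed under 0.05 in 1 of 5 cases. NEXN was placed on the list with its difference in these data known, so its position describes the set.

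LPP, a LIM protein that shuttles between adhesions and the nucleus, was at −0.33, −0.28 and −0.20 in CDH26 clones 1, 2 and 3, and at 0.06 and −0.06 in control clones 1 and 2. Here control clone 1 was the highest clone, and the gap between controls was small. The difference of −0.27 ± 0.06 (SE) had an unadjusted p of 0.0105 and an adjusted p of 0.626 (limma). It lay between −0.33 and −0.21 with each clone left out in turn, and the unadjusted p was 0.0566 without control clone 1.

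PDLIM5, a scaffold that joins kinases to the Z disc and stress fibres, was at −0.51, −0.36 and −0.24 in the CDH26 clones and at −0.18 and 0.18 in control clones 1 and 2. Every CDH26 clone lay below both controls, and the difference was −0.37 ± 0.15 (SE), or −0.19 without control clone 2. Its relative PDLIM7 was at 0.06, 0.02 and 0.10, between control clones at −0.29 and 0.29. The direction of PDLIM7 depended on the control clone, at 0.35 against control clone 1 alone and −0.23 against control clone 2 alone.

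In FHL2 and ZYX control clone 2 was the highest clone. FHL2, a LIM-only coregulator that SRF induces, was at −0.43, −0.49 and −0.20 in the CDH26 clones and at −0.39 and 0.39 in control clones 1 and 2. ZYX, which encodes zyxin, a protein of strained stress fibres, was at −0.35, −0.33 and −0.25, with controls at −0.26 and 0.26. In both genes control clone 1 lay within the range of the CDH26 clones. The differences were −0.37 ± 0.27 (SE) for FHL2 and −0.31 ± 0.17 for ZYX, or 0.02 and −0.05 without control clone 2.

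FERMT2, or kindlin-2, which activates integrins, differed by −0.28 ± 0.15 (SE), or −0.06 without control clone 2. VASP, which elongates filaments at their ends, was at −0.06, −0.24 and −0.20 in the CDH26 clones and at −0.29 and 0.29 in control clones 1 and 2. All 3 CDH26 clones thus lay between the controls in VASP, and the difference of −0.17 ± 0.20 turned to 0.13 without control clone 2. LASP1, a LIM and SH3 protein, and PXN, which encodes the adhesion scaffold paxillin, differed by −0.01 ± 0.13 and −0.07 ± 0.07.

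The talins, which tie integrins to actin, did not separate the groups. TLN1 was at −0.05, −0.05 and −0.11 in the CDH26 clones and at 0.05 and −0.05 in control clones 1 and 2, a difference of −0.07 ± 0.04 (SE). TLN2 was at 0.20, 0.28 and 0.02 in the CDH26 clones and at 0.29 and −0.29 in the controls, a difference of 0.16 ± 0.21. Against control clone 1 alone the difference was −0.13 for TLN1 and −0.12 for TLN2. TLN2 was the member with the widest gap in favour of control clone 1. TNS1, the tensin of mature adhesions, was at 0.12, 0.14 and 0.12 in the CDH26 clones and at −0.12 and 0.12 in the controls, a difference of 0.13 ± 0.08. TNS1, TLN1, CALD1 and MRTFB were the 4 members with exactly tied clones, against 53.7% of all genes.

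The diaphanous formins, which nucleate and elongate unbranched filaments, both lay lower in every CDH26 clone than in either control clone. DIAPH3, which acts in filopodia and at the cell cortex, was at −0.64, −0.71 and −0.34 in CDH26 clones 1, 2 and 3, and at −0.15 and 0.15 in control clones 1 and 2. DIAPH1, the widely expressed formin that drives stress fibre formation, was at −0.17, −0.21 and −0.29, with controls at 0.06 and −0.06. The lowest clone was CDH26 clone 2 for DIAPH3 and CDH26 clone 3 for DIAPH1. The highest clone was control clone 2 for DIAPH3 and control clone 1 for DIAPH1.

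The difference was −0.56 ± 0.16 (SE) for DIAPH3, a 1.48-fold lower value, and −0.22 ± 0.06 for DIAPH1, a 1.17-fold lower value. The unadjusted p-values were 0.0271 and 0.0200 in limma, with an adjusted p of 0.626 for each. Leaving out each clone in turn kept DIAPH3 between −0.72 and −0.41 and DIAPH1 between −0.29 and −0.16. The unadjusted p stayed under 0.05 in 2 of 5 cases for each gene and reached 0.142 for DIAPH3 and 0.087 for DIAPH1.

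Other genes of the pathway were counted from lists of SRF targets and of actin regulators. Of 28 other SRF and MRTF targets 21 were measured. Their median difference was −0.20, or −0.07 without control clone 2, and 17 averaged lower in the CDH26 clones, against 49.5% of all genes. At an unadjusted p under 0.05, 3 were lower, against 4.00% of all genes, and 0 higher, against 3.51%. FERMT1, or kindlin-1, differed by −0.32 ± 0.09 (SE), and TES, which encodes the zyxin partner testin, by −0.25 ± 0.07. ANKRD1, a mechanosensitive nuclear protein singled out after its values were seen, was at −1.69, −1.82 and −1.89 in the CDH26 clones. Its control clones 1 and 2 were at −1.53 and 1.53, so the high clone was again control clone 2.

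Immediate early genes, which SRF drives with ternary complex factors, did not lie lower as a group. Of 16 listed 14 were measured, with a median difference of 0.01; 8 averaged higher with CDH26 and 6 lower, against 49.5% of all genes lower. In 5 genes all CDH26 clones were over both controls, against 8.98% of all genes. At an unadjusted p under 0.05, 2 were higher, against 3.51% of all genes, and 1 lower, against 4.00%. EGR1 was at 0.63, 0.72 and 0.49 in the CDH26 clones and at 0.21 and −0.21 in control clones 1 and 2, a difference of 0.61 ± 0.16 (SE). FOSB differed by −0.12 ± 0.03.

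Regulators of actin assembly and turnover were mixed. Of 45 listed 22 were measured, with a median difference of 0.03. At an unadjusted p under 0.05, 2 were lower and 2 higher, against 4.00% and 3.51% of all genes. The formin FMNL2 was at 0.45, 0.55 and 0.40 in the CDH26 clones and at −0.04 and 0.04 in the controls. Its difference of 0.47 ± 0.06 (SE) was opposite in sign to those of DIAPH1 and DIAPH3. CTTN, which encodes cortactin, a protein of branched filaments, differed by −0.27 ± 0.04.

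Partners of the contractile ring were listed because ANLN and the formins act in cytokinesis. Of 18 listed 17 were measured, with a median difference of 0.12. Of these, 11 averaged higher with CDH26 and 6 lower, against 49.5% of all genes lower. CDCA8, a subunit of the chromosomal passenger complex, differed by 0.16 ± 0.04 (SE), and the septin SEPTIN11 by −0.33 ± 0.10. Proliferation markers, 14 of 16 measured, had a median of 0.11. Of these, 10 averaged higher with CDH26 and 4 lower, against the same 49.5% of all genes lower. By clone, their median was 0.04, 0.14 and 0.13 for CDH26 clones 1, 2 and 3, against 0.11 for control clone 1 and −0.11 for control clone 2. BUB1, a spindle checkpoint kinase, differed by 0.46 ± 0.04 (SE), and its relative BUB1B by 0.21 ± 0.07. All CDH26 clones were over both controls in 4 of the 14 measured markers, BUB1 and BUB1B among them, against 8.98% of all genes. Control clone 2, high in the actin genes, was the lowest clone in proliferation markers; the part of proliferation in the actin differences was not tested.

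**Figure D4:**
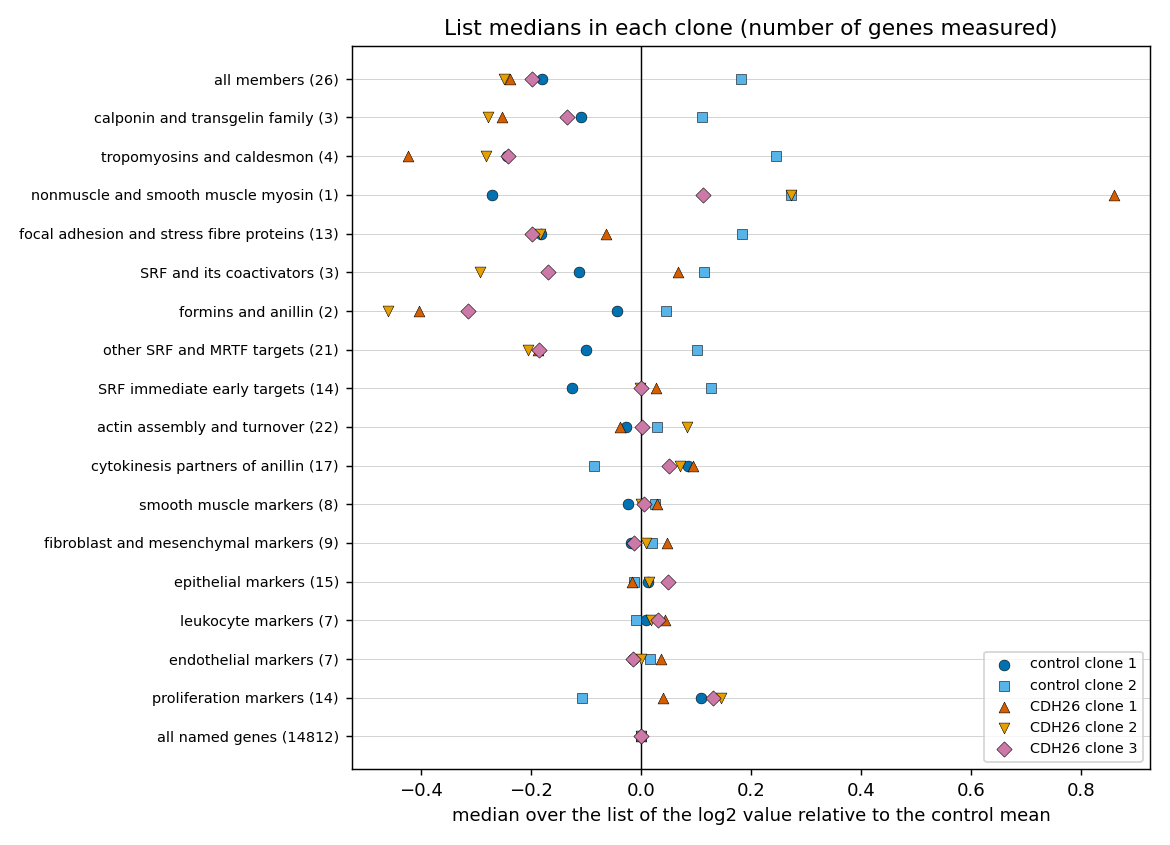
Median log2 value relative to the control mean in each of the 5 clones, for all members, for their functional groups, for the other pathway lists and for marker lists, with the number of genes measured in brackets. Control clone 2 stands apart at 0.18 for all members and lies at −0.11 for proliferation markers.

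Markers of other cell types were followed for the same clones. Smooth muscle markers, 8 of 12 measured, had a median difference of 0.01, with 3 lower and 5 higher means, against 49.5% of all genes lower. Yet MYOCD, which encodes myocardin, the muscle relative of the MRTF coactivators, was at −0.92, −1.17 and −0.78 in the CDH26 clones and at −0.74 and 0.74 in control clones 1 and 2. Its control clones thus stood apart in the same order as those of TAGLN, and its difference was −0.96 ± 0.50 (SE), or −0.22 without control clone 2. DES, the muscle intermediate filament desmin, differed by −0.18 ± 0.07.

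Mesenchymal markers, 9 of 20 measured, had a median difference of 0.01, with 4 lower and 5 higher means. LUM (lumican) differed by 1.59 ± 0.42 (SE) and SNAI2 by −0.07 ± 0.04. Epithelial markers, 15 of 18 measured, had a median of −0.02, with 8 lower and 7 higher means. KRT14 differed by 2.72 ± 0.43 and KRT19 by 0.35 ± 0.11. Leukocyte markers, 7 of 12 measured, had a median of 0.04, with 2 lower and 5 higher means. CD68 differed by 1.07 ± 0.33 and TPSAB1 by −0.17 ± 0.08. Endothelial markers, 7 of 10 measured, had a median of 0.00, with 3 lower and 3 higher means. ERG differed by 0.35 ± 0.13 and ESAM by −0.26 ± 0.15. Over all genes 49.5% averaged lower. The named genes have the smallest unadjusted p of their list, so they do not stand for it. Over the marker lists of other cell types, the clone medians ran from −0.02 to 0.05. Control clone 2 was above control clone 1 in 6 of 8 smooth muscle, 8 of 9 mesenchymal, 7 of 15 epithelial, 3 of 7 leukocyte and 4 of 7 endothelial markers, against 42.7% of all genes. The median of control clone 2 minus control clone 1 was 0.05 over the smooth muscle and 0.04 over the mesenchymal markers. The part of these markers in the actin differences was not tested.

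Across the set, agreement among CDH26 clones was closer than between the control clones. The median absolute difference over the members was 0.06 between CDH26 clones 1 and 2, 0.12 between clones 1 and 3, 0.13 between clones 2 and 3 and 0.41 between the control clones, against 0.07, 0.08, 0.06 and 0.09 over all genes in the same order. Between control clone 1 and CDH26 clones 1, 2 and 3 it was 0.24, 0.17 and 0.15. Between control clone 2 and the same clones it was 0.41, 0.44 and 0.36.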

How the data were processed

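RNA from 5 TE7 clones was analysed, 1 array per clone. The submitters' processing notes name Affymetrix Expression Console; its version and the genome build are not given. The authors' deposited table holds log values, taken here as log2 since the base is not stated. The values of the control clones cancel in every row (largest absolute sum 1e-06), so the authors' deposited log2 values are centred on the control mean. Natural logarithms were tried as an alternative.

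The array annotation named 15835 of 44607 probe sets, each with 1 gene, and left 28772 unnamed. All 15835 names matched the RefSeq symbol of their gene identifier. Probe sets were averaged per gene, and no brightness filter was possible. Differences were fitted in R 4.3.3 by lmFit and two-sided eBayes of limma 3.58.1, without a trend and with Benjamini-Hochberg adjustment over 14812 genes. The step was tested on simulated data. Exact permutation was not run, since 2 against 3 clones allow no p under 0.1. Clones within 1e-05 counted as tied. Promoter letters came from RefSeq. Figures used matplotlib 3.10.9.

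Members and lists were chosen with earlier results of these data known. Values in every clone are given for NEXN, SRF, MRTFA and MRTFB, for members with an unadjusted p under 0.05 or a difference of at least 0.5, and for their relatives. From each other list the 2 genes with the smallest unadjusted p are named; 1 list is not reported here. Alternatives were a replicate block, each clone left out, median-centred arrays, weighted arrays, robust variance, other probe set rules, genes without ties, natural logarithms and an adjusted threshold of 0.1.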

Additional observations from a re-analysis of the deposited data

How the results depend on the processing

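The counts and the median over the members kept their direction and moved little under robust variance, array weights, genes with a single named probe set and single probe sets. Centring on array medians could change nothing, because the median over all named genes was already 0 in every clone. Natural logarithms rescale every value alike, so only the median could move (−0.34). An adjusted threshold of 0.1 bears only on the adjusted counts, which stayed at 0. With genes without ties 1 gene of all passed the adjusted threshold. Leaving out 1 clone moved the counts and the median further. Genes past the adjusted threshold ran from 0 to 186, the latter without control clone 1, and members past it were 0 throughout. Members lower at an unadjusted p under 0.05 ran from 1 (without CDH26 clone 2) to 13 (without control clone 1), and members higher from 1 to 3. In the same fits 1.67% and 9.95% of all genes were lower at that p. Members with every CDH26 clone below the controls ran from 10 (without CDH26 clone 1 or 2) to 20 (without control clone 1), against 9 with all clones. Members above ran from 1 to 6, the latter without control clone 2. Leaving out a clone makes these conditions easier to meet. Over all genes 27.0% lay below control clone 2 alone, against 9.93% below both controls. Above control clone 1 alone lay 23.8%, against 8.98% above both. The median ran from −0.41 to −0.088. With 1 control clone left out, the spread comes from the CDH26 clones and is assumed to hold for the lone control. Only in fits with a lone control was more than 1 member higher at an unadjusted p under 0.05 (limma). The share of all genes higher at that p was also larger there than in the other fits. In each fit without a CDH26 clone, 1 member was higher at that p, against 1.87% to 4.11% of all genes.

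Directions turned for 7 members when 1 clone was left out. With control clone 1 or, second, control clone 2 left out, the differences were −0.23 and 0.35 for PDLIM7, 0.45 and −0.12 for TLN2, 0.32 and −0.17 for MRTFB, −0.17 and 0.15 for LASP1, −0.46 and 0.13 for VASP, −0.76 and 0.016 for FHL2 and −0.37 and 0.021 for SRF. LASP1 also turned without CDH26 clone 2 (0.05). The cause was not tested.

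The labels number the clones, but same-numbered clones share only a number: their deviations from the group means had correlations of −0.20 and −0.21 over all genes. With the replicate block 3 members were lower at an unadjusted p under 0.05, against 4 without it, and the median was −0.22; NEXN, LPP and DIAPH1 passed it no longer, and TPM4 and PDLIM5 did. The trend in variance was not run, because centred values keep no level. The small number of arrays limits every p.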
